A study of Mus musculus with 6 samples.

Results

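D-type cyclins and the inhibitors of their kinases were followed in 2H11 cells after 48 h with BMP4, together with the pocket protein gene Rb1. The group comprised 10 genes chosen by name from the 11754 genes of the deposited table: the CIP/KIP inhibitors Cdkn1a and Cdkn1b, the INK4 inhibitors Cdkn2a, Cdkn2b, Cdkn2c and Cdkn2d, the D cyclins Ccnd1, Ccnd2 and Ccnd3, and Rb1. All 10 had values, and 23 of the 22148 listed transcripts belonged to them. The BMP4 group was 2H11 cells that were starved and then given BMP4 for 48 h (3 samples), and the untreated group was starved 2H11 cells kept without it (3 samples). 2H11 is an established mouse line of the C3H/HeJ strain that the labels call endothelial, with an axillary lymph node as its source. The line is known to be transformed with SV40, a virus whose large T antigen can bind Rb proteins and p53; T antigen was not measured here.

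Cyclins D1, D2 and D3 bind the kinases CDK4 and CDK6 in early G1, and the active kinases phosphorylate the Rb protein, which then releases the E2F transcription factors that drive DNA replication genes. INK4 proteins block CDK4 and CDK6 directly, whereas CIP/KIP proteins bind cyclin-CDK complexes more broadly and also act on CDK2. BMP and TGF-beta signals are known to restrain growth in some cell types by raising INK4 and CIP/KIP genes.

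Values were FPKM (fragments per kilobase, scaled to the size of the library). Among genes with all GENCODE M21 transcripts listed, 99.77% of gene values were within 1% of a length-weighted transcript sum divided by all exonic bases. Sequence outside a gene's main transcripts therefore lowers its gene value: Ccnd3 had 8775 exonic bases, against 2113 in Ccnd3-201. Orders, sums and shares across genes below hold for these gene values and are not strict comparisons of transcript amounts. The sum of FPKM over all genes was 252329 to 264273 in BMP4 samples and 256997 to 273562 in untreated samples, and read depth is unknown. Of the markers checked, 5 of 16 endothelial genes were listed (Cd34, Ecscr, Egfl7, Eng and Flt1), with a summed level of 55.8 to 58.5 FPKM in BMP4 samples and 86.6 to 93.1 FPKM in untreated samples. They did not move as one: Cd34 fell to 24.5 ± 0.547 FPKM with BMP4, against 52.2 ± 2.83 FPKM without (SD, n = 3 each), Ecscr fell by 0.45 on the log2 scale, Flt1 rose by 0.62, and Eng and Egfl7 were not called (limma, log2 fold changes 0.00 and -0.22). The other 11, among them Pecam1, Cdh5, Kdr and Tek, were looked up, gave no value here and were not analysed further. All 10 fibroblast markers were listed, with a summed level of 1591 to 1599 FPKM in BMP4 samples and 3077 to 3124 FPKM in untreated samples. Of these, 7 were called lower, among them Col1a1, Col3a1 and Dcn, and 3 were called higher, Pdgfra, Pdgfrb and Thy1, by 0.45, 0.57 and 0.43 on the log2 scale. Of 8 leukocyte markers 3 were listed (12.1 to 13.7 FPKM summed in BMP4 samples, 10.3 to 15.6 FPKM in untreated samples), and of 6 epithelial markers Krt14 was the single one listed, at 0.742 to 1.07 FPKM in BMP4 samples and 0 to 0.339 FPKM in untreated samples. Whether these shifts bear on the changes below was not tested. In bulk samples fewer cells of a kind and less RNA per cell cannot be told apart. The labels do not say whether replicates were separate cultures, so p-values measure the spread between these samples.

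Cdkn2a has alternative first exons whose products are unrelated proteins: the kinase inhibitor p16Ink4a and the p53 activator p19Arf. The deposited transcript Cdkn2a-001 (GRCm38, chr4:89274471-89282192, minus strand) starts at the p16Ink4a exon, and Cdkn2a-002 (chr4:89274541-89294653, minus strand) starts 12461 bases upstream at the p19Arf exon. In GENCODE M21 both splice to the same exon 2 (chr4:89276645-89276985). They share 575 exonic bases, which is 67.5% of the 852 bases of Cdkn2a-001 and 64.2% of the 895 bases of Cdkn2a-002, so their separate values rest on the remaining bases. Their junctions are shown because both proteins are read from the letters in capitals: the last 60 bases of exon 1 are in lower case and the first 30 bases of exon 2 in capitals.
Cdkn2a-001, p16Ink4a: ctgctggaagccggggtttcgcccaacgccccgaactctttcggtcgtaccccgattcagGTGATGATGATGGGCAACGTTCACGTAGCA
Cdkn2a-002, p19Arf: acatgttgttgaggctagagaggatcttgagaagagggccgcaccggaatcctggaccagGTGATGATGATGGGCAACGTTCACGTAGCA
Exon 1 contributed 126 coding bases to p16Ink4a, a multiple of 3, and 190 coding bases to p19Arf, which leaves a remainder of 1. The exon 2 letters in capitals are therefore read in different frames, giving 168 and 169 amino acids.

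Promoters of the inhibitors that fell are shown next, as the windows that hold the listed start of one of their transcripts. RefSeq windows on GRCm38.p6, from 250 bases before to 50 bases after a start site, were matched for 7 of the 10 members with 11 windows in all; Ccnd1, Ccnd2 and Rb1 were not matched. Capitals mark exact matches, on either strand, to the GC-rich SMAD motif GGCGCC, the SMAD-binding element CAGAC, the E-box CACGTG, or an E2F core, which was TTTCGCG or else TTTGGCG or else TTTCCCG. No match overlapped another in these 6 windows.
Cdkn1a, start of Cdkn1a-003, chr17:29090729-29091028, plus strand: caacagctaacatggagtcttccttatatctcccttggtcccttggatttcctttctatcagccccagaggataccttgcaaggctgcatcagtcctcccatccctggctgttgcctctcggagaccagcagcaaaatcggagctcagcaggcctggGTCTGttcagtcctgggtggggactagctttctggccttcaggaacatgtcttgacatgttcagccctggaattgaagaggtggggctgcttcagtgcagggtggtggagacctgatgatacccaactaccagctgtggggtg
Cdkn1a, start of Cdkn1a-001, chr17:29093519-29093818, plus strand: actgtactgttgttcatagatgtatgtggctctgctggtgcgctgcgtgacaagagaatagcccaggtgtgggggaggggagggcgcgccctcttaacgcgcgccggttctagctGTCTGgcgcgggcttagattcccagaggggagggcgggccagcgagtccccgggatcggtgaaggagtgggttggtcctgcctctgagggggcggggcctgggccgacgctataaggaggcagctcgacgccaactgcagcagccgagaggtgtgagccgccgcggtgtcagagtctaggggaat
Cdkn2a, p16Ink4a start, chr4:89282143-89282442, minus strand: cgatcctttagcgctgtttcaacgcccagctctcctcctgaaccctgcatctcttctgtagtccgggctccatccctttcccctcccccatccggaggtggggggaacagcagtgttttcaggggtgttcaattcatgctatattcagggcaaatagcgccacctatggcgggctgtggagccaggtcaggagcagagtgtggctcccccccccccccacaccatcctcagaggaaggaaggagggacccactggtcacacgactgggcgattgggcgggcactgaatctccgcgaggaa
Cdkn2a, p19Arf start, chr4:89294570-89294869, minus strand: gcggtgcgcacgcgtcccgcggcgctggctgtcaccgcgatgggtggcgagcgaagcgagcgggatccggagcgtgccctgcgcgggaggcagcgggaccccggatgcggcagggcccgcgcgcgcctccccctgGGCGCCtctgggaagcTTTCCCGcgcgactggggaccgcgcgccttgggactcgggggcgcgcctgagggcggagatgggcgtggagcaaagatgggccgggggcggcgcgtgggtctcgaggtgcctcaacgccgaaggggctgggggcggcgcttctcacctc
Cdkn2b, chr4:89310983-89311282, minus strand: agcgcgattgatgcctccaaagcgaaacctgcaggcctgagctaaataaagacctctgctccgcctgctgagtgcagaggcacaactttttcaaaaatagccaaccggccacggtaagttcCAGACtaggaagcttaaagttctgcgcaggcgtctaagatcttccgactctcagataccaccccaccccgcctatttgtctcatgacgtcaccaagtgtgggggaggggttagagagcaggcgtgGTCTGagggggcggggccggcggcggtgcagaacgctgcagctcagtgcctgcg
Cdkn2c, start of Cdkn2c-002, chr4:109665323-109665622, minus strand: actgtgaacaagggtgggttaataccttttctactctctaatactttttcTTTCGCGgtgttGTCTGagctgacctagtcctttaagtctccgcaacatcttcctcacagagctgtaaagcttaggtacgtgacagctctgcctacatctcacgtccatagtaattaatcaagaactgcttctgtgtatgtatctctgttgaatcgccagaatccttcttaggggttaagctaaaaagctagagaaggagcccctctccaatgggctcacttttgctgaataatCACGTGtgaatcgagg
GGCGCC stood in 5 of the 11 member windows, against 11.9% of all 32851 windows of this length, and CAGAC in 6 of 11, against 49.6%. Of the windows with GGCGCC, the p19Arf window alone is printed above. The others belonged to Ccnd3, Cdkn1b, Cdkn2d and a second start of Cdkn2c. The windows with GGCGCC had 62% to 77% GC, and windows of matched GC content were not compared. The E2F cores were matched in 2 member windows, the p19Arf window and the Cdkn2c window above, against 5.58% of all windows. The E-box was matched in 1, the same Cdkn2c window, against 7.15%. The p16Ink4a window held none of these letters. GC content was 60.3% in the p16Ink4a window and 77% in the p19Arf window, in a range of 44% to 77% over the member windows and beside a median of 52.7% over all windows. These matches describe sequence and do not show binding.

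The comparison of BMP4-treated with untreated cells asked how this G1 machinery differed after 48 h of BMP4. Of the 6 inhibitor genes 4 fell, cyclin D1 fell, and no member passed as higher. Cdkn1a and Ccnd1 had 31.4% and 37.3% lower mean levels with BMP4, and Cdkn2a, Cdkn2b and Cdkn2c had means lower by 18.1% to 23.1%. Of the 10 members, all of which reached the mean of 1 FPKM set for testing, 5 were lower and 0 higher at a limma adjusted p under 0.05 over all genes, with 1 (Rb1) higher at an unadjusted p under 0.05. Over the 10932 genes tested, 14.3% were called lower and 13.6% higher, 27.9% in all. The median log2 fold change of the members, on the log2(FPKM + 1) scale used throughout, was -0.30, beside 0.00 over all tested genes. In 6 members every BMP4 sample lay below every untreated sample, and in 2 above; such separation held for 45.5% of all tested genes.

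**Figure D1:**
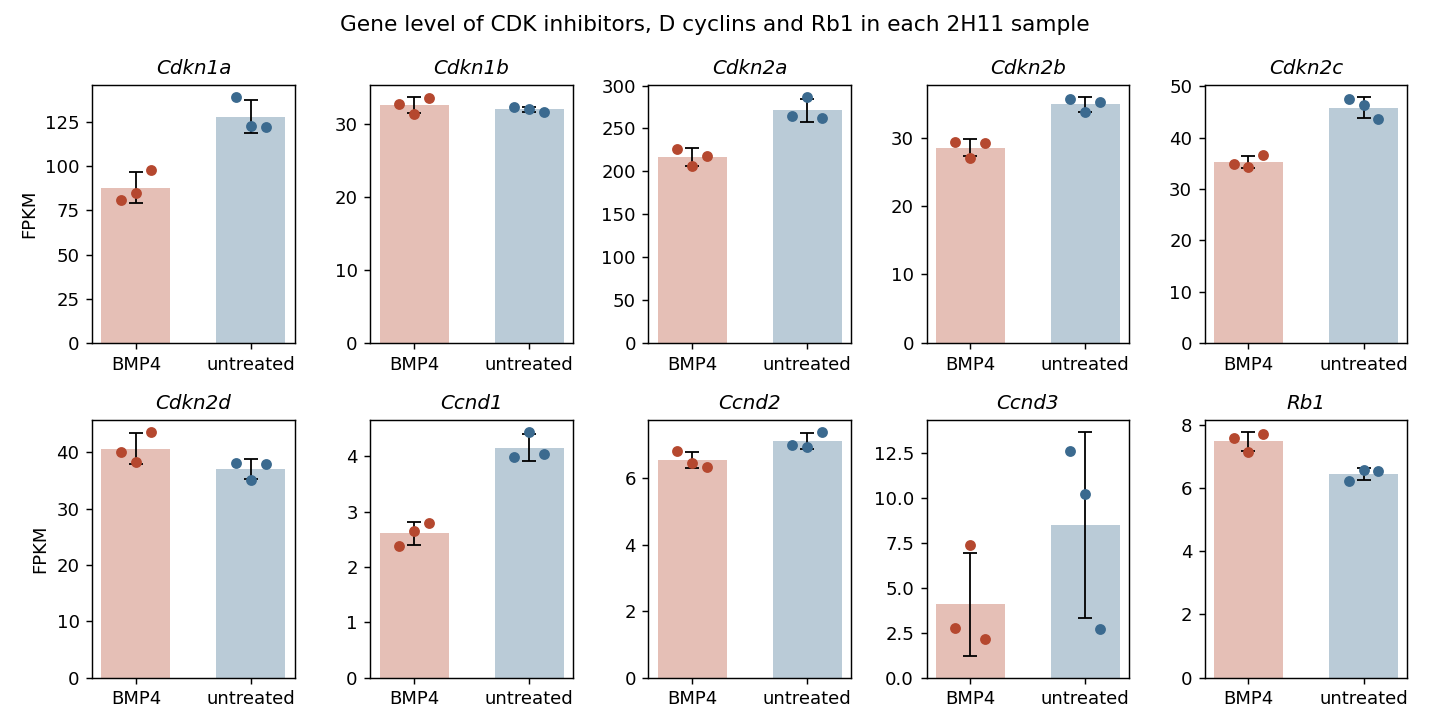
Gene level in FPKM (y axis, from 0) of each of the 10 genes, with BMP4 samples on the left and untreated samples on the right of each panel; points are the 3 samples, bars their mean and whiskers the SD. The 3 BMP4 samples lie below all untreated samples for Cdkn1a, Cdkn2a, Cdkn2b, Cdkn2c, Ccnd1 and Ccnd2, and above them for Cdkn2d and Rb1. For Cdkn1b and Ccnd3 the ranges of the groups overlap.

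Cdkn1a encodes p21, the inhibitor that p53 induces after DNA damage (chromosome 17, 29090979 to 29100722, plus strand). It was at 80.8, 85.0 and 97.6 FPKM in BMP4 samples, against 139, 123 and 122 FPKM in untreated samples. The highest BMP4 sample was well below the lowest untreated sample. Its mean was 87.8 ± 8.71 FPKM with BMP4 and 128 ± 9.53 FPKM without (SD, n = 3 each), 1.46-fold lower with BMP4 (limma adjusted p = 0.00331, with a log2 fold change of -0.54 and an SE of 0.08). Its transcripts with separate start sites, 2793 bases apart in the deposited table, had the same direction. Cdkn1a-001, which held 80.3% ± 2.82 of the summed transcript FPKM with BMP4 and 79.0% ± 0.999 without, was at 86.8, 88.6 and 104 FPKM in BMP4 samples, against 147, 129 and 129 FPKM in untreated samples (log2 fold change -0.53, limma adjusted p = 0.0269 over all transcripts). Cdkn1a-003, from the upstream start, was at 17.3, 25.3 and 22.9 FPKM in BMP4 samples, against 35.1, 34.6 and 32.4 FPKM in untreated samples, and missed the threshold (log2 fold change -0.63, limma adjusted p = 0.0555).

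Cdkn1b encodes p27, an inhibitor of cyclin E-CDK2 that is controlled largely by protein turnover (chromosome 6, 134920401 to 134925513, plus strand). It was at 32.7, 31.4 and 33.5 FPKM in BMP4 samples, against 32.2, 32.0 and 31.6 FPKM in untreated samples, and the groups overlapped. The log2 fold change was 0.02 (limma adjusted p = 0.708), with a 95% interval of -0.08 to 0.13. Of its 3 transcripts, each coding for 197 amino acids, Cdkn1b-002 took a smaller share of the summed FPKM with BMP4, 48.3% ± 0.601, against 54.9% ± 1.19 in untreated samples. The groups did not overlap, and the exact two-sided permutation p was 0.1, the smallest that 3 samples against 3 can give. It was the only transcript share of a member without overlap, and this p was not adjusted for the number of shares looked at. Limma's test of unequal transcript change did not call Cdkn1b (adjusted p = 0.457).

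Cdkn1c (p57), an imprinted CIP/KIP gene that is not one of the 10, rose. It was at 14.9, 15.3 and 14.7 FPKM in BMP4 samples, against 8.82, 9.61 and 8.93 FPKM in untreated samples (limma adjusted p = 0.000161, with a log2 fold change of 0.66 and an SE of 0.05). At the gene level its mean was 1.64-fold higher with BMP4.

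Cdkn2a was the most abundant member by FPKM (chromosome 4, 89274471 to 89294653, minus strand). Its gene value was 226, 206 and 218 FPKM in BMP4 samples, against 265, 286 and 262 FPKM in untreated samples. Every BMP4 sample was below every untreated sample (limma adjusted p = 0.00627, with a log2 fold change of -0.32 and an SE of 0.06). The p16Ink4a transcript, Cdkn2a-001, was at 108, 109.9 and 108 FPKM in BMP4 samples, against 126, 135 and 128 FPKM in untreated samples. The p19Arf transcript, Cdkn2a-002, was at 194, 165 and 182 FPKM in BMP4 samples, against 227, 246 and 222 FPKM in untreated samples. Both fell, by 0.25 for p16Ink4a (limma adjusted p = 0.0184) and by 0.36 for p19Arf (limma adjusted p = 0.0434) on the log2 scale. Neither call held after rescaling to equal sums (0.0708 for p16Ink4a and 0.0635 for p19Arf) or without the variance trend (0.0981 and 0.0941). The p19Arf transcript held 62.4% ± 2.15 of their sum with BMP4 and 64.1% ± 0.553 without, and the groups overlapped (exact two-sided permutation p = 0.3). Limma's test of unequal transcript change gave an adjusted p of 0.831.

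**Figure D2:**
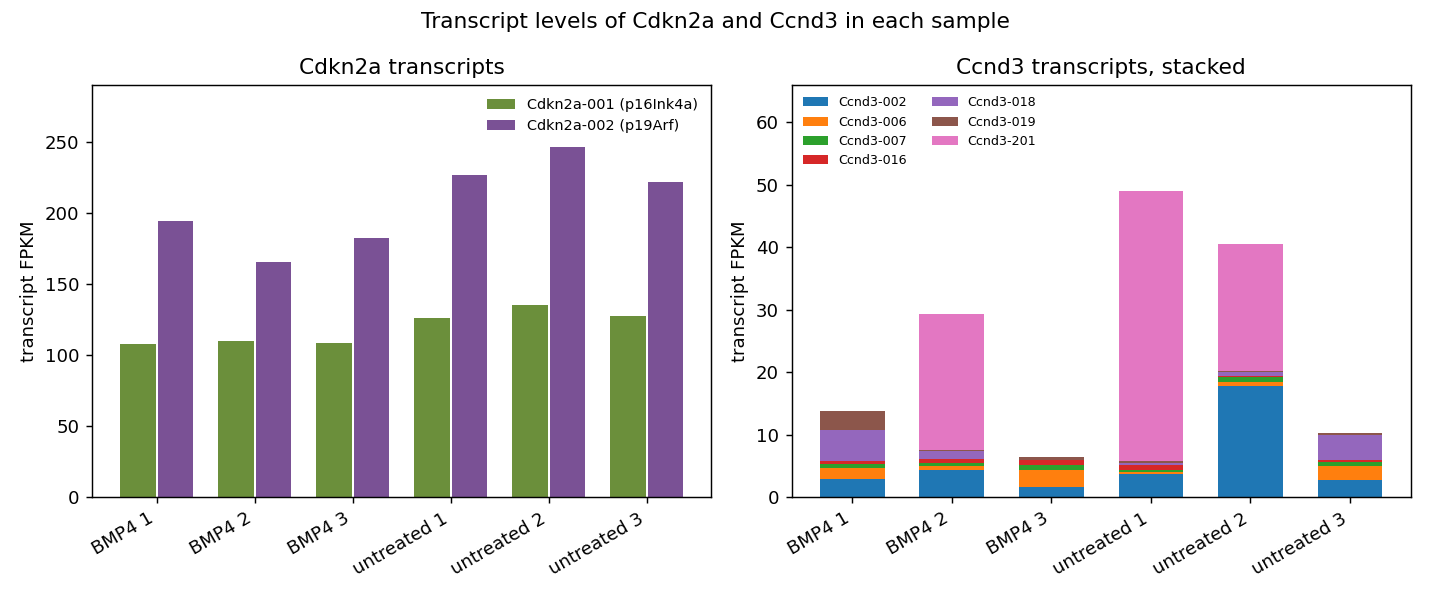
Transcript FPKM (y axis) in each of the 3 BMP4 and 3 untreated samples (x axis), as paired bars for the Cdkn2a transcripts on the left and as stacked bars for the 7 listed Ccnd3 transcripts on the right. The p19Arf transcript is above the p16Ink4a transcript in each sample and both are lower with BMP4, while Ccnd3-201 is at 0 in 2 BMP4 samples and in 1 untreated sample.

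Cdkn2b (p15Ink4b), the neighbour of Cdkn2a and a known target of TGF-beta, lies 11635 bases away on the same strand (chromosome 4, 89306289 to 89311032). It was at 29.4, 27.1 and 29.2 FPKM in BMP4 samples, against 35.7, 33.7 and 35.2 FPKM in untreated samples. The groups did not overlap, and it fell by 0.28 on the log2 scale (SE 0.05, limma adjusted p = 0.00670). Cdkn2c (p18Ink4c; chromosome 4, 109660876 to 109667189, minus strand) had the smallest p of the members. It was at 34.8, 34.4 and 36.7 FPKM in BMP4 samples, against 47.6, 46.3 and 43.6 FPKM in untreated samples (limma adjusted p = 0.00198, with a log2 fold change of -0.37 and an SE of 0.05). Its 2 transcripts each code for 168 amino acids. Cdkn2c-001 fell to 22.4, 25.4 and 25.5 FPKM in BMP4 samples, against 29.9, 30.9 and 30.02 FPKM in untreated samples (limma adjusted p = 0.0484). Cdkn2c-002 was at 34.6, 26.7 and 32.0 FPKM in BMP4 samples, against 48.8, 43.5 and 38.8 FPKM in untreated samples, and missed the threshold (limma adjusted p = 0.0835).

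Cdkn2d (p19Ink4d; chromosome 9, 21288463 to 21291209, minus strand) was the INK4 gene that did not fall. It was at 40.1, 38.3 and 43.6 FPKM in BMP4 samples, against 38.1, 35.04 and 37.9 FPKM in untreated samples. The groups were separated only narrowly, and the log2 fold change of 0.13 (SE 0.06) did not pass (limma adjusted p = 0.162). It passed in 1 alternative, when samples were rescaled to equal sums (limma adjusted p = 0.0467). Summed over the gene values of the 4 INK4 genes, the level was 321 ± 13.5 FPKM with BMP4 and 389 ± 11.5 FPKM without (SD, n = 3 each), most of it from Cdkn2a. The Cdkn2a value includes the p19Arf transcript, which does not code for an INK4 protein. The sum is therefore not a level of INK4 inhibitors.

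Among the D cyclins, Ccnd1 (chromosome 7, 144929931 to 144939925, minus strand), the cyclin most responsive to growth factors, was called lower. It was at 2.37, 2.65 and 2.79 FPKM in BMP4 samples, against 3.99, 4.44 and 4.04 FPKM in untreated samples. Every BMP4 sample was below every untreated one. The log2 fold change was -0.52, with an SE of 0.07 (limma adjusted p = 0.00238), and the mean in FPKM was 1.60-fold lower with BMP4. The exons of Ccnd1 share 1100 bases with those of a gene on the opposite strand, listed as Oraov1, at 1.23, 1.15 and 1.25 FPKM in BMP4 samples, against 1.52, 1.91 and 1.29 FPKM in untreated samples. The libraries keep strand, but the sources used here do not say whether the quantification used it, and its part in the Ccnd1 result was not tested.

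Ccnd2 (chromosome 6, 127125162 to 127152193, minus strand) was at 6.83, 6.48 and 6.36 FPKM in BMP4 samples, against 7.02, 6.94 and 7.40 FPKM in untreated samples. The groups were next to each other without overlap, and the log2 fold change of -0.10 (95% interval -0.24 to 0.04) did not pass (limma adjusted p = 0.233). The transcript Ccnd2-001, which codes for 289 amino acids, held 92.3% ± 1.39 of the summed FPKM with BMP4 and 83.5% ± 10.9 without. The shorter Ccnd2-004 was at 0.962, 0.840 and 0.608 FPKM in BMP4 samples, against 3.94, 0.865 and 1.59 FPKM in untreated samples, so the spread of that share came with untreated sample 1.

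Ccnd3 (chromosome 17, 47505051 to 47599691, plus strand) varied widely between the samples of each group. Its gene value was 2.76, 7.38 and 2.14 FPKM in BMP4 samples, against 12.6, 10.2 and 2.70 FPKM in untreated samples. The groups overlapped, and the log2 fold change was -0.84 with a 95% interval of -2.14 to 0.46 (limma adjusted p = 0.299). It passed in 1 of 13 alternatives, without untreated replicate 3, where it was -1.42 (limma adjusted p = 0.0492). Over the 6 fits with a replicate left out it ranged from -1.42 to -0.48 (limma adjusted p up to 0.592). The transcript Ccnd3-201 was listed at 0, 21.8 and 0 FPKM in BMP4 samples, against 43.3, 20.3 and 0 FPKM in untreated samples. Samples with a high gene value were those with a value for Ccnd3-201. Length-weighted and summed, the 7 listed transcripts of the 21 in GENCODE M21 gave 51.1% to 91% of the gene value, depending on the sample. The exons of Ccnd3 share 361 bases with those of Bysl on the opposite strand, which was at 8.56, 8.50 and 9.51 FPKM in BMP4 samples, against 12.1, 11.9 and 11.5 FPKM in untreated samples. Bysl was lower with BMP4 without overlap, and its part in the Ccnd3 values was not tested.

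Because of Ccnd3, the shares of the D cyclins in their summed FPKM varied widely between replicates: Ccnd1 held 20.2% ± 4.35 with BMP4 and 22% ± 5.98 without, which overlapped (exact two-sided permutation p = 0.6). With Ccnd3 left out, a choice made after its values were seen, Ccnd1 held 28.4% ± 2.45 of the sum of Ccnd1 and Ccnd2 with BMP4 and 36.9% ± 1.92 without. The 3 shares with BMP4 were all below the 3 without, at the smallest exact two-sided permutation p that the design allows (0.1).

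Rb1 encodes the pocket protein that cyclin D kinases phosphorylate (chromosome 14, 73183673 to 73325822, minus strand). It was at 7.58, 7.15 and 7.72 FPKM in BMP4 samples, against 6.22, 6.59 and 6.53 FPKM in untreated samples. All BMP4 samples were above all untreated samples, and the mean was 1.16-fold higher with BMP4. The log2 fold change of 0.19 (SE 0.06, 95% interval 0.05 to 0.33) just missed the threshold (limma adjusted p = 0.0532; unadjusted p = 0.0152). It passed in 3 of 13 alternatives. These were rescaling to equal sums (limma adjusted p = 0.0421), median-ratio rescaling (0.0490) and the fit without the variance trend (0.0424). In the 6 fits with a replicate left out it did not pass (limma adjusted p = 0.0829 to 0.153). Exons of Rb1 share 408 bases with Lpar6 and 488 bases with Rcbtb2 on the opposite strand. Lpar6 was at 0.743, 0.939 and 1.04 FPKM in BMP4 samples, against 0.808, 0.969 and 1.12 FPKM in untreated samples. Rcbtb2 was at 2.98, 2.48 and 2.84 FPKM in BMP4 samples, against 2.51, 2.78 and 2.56 FPKM in untreated samples. Both overlapped between the groups.

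**Figure D3:**
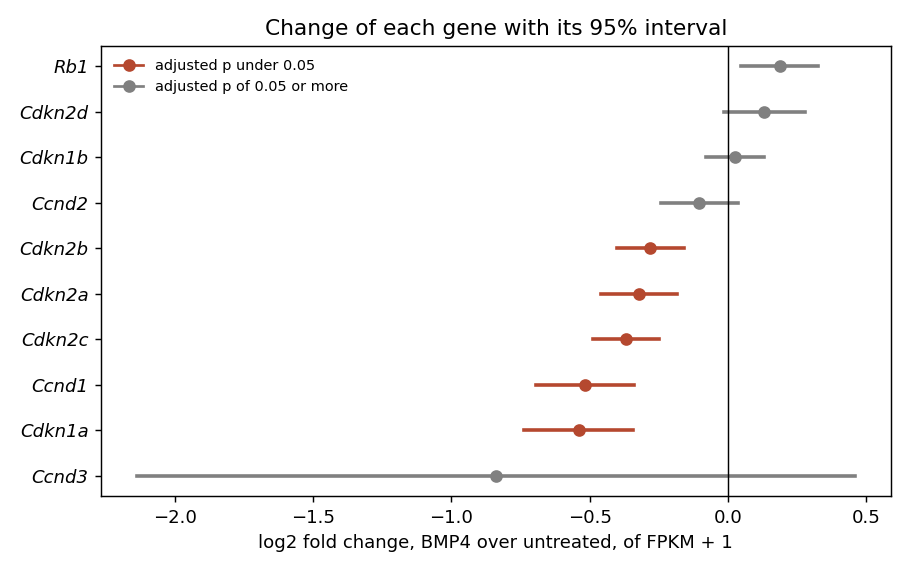
Log2 fold change of FPKM + 1, BMP4 over untreated (x axis), of each gene with its 95% interval from the limma fit (n = 3 per group); red genes have an adjusted p under 0.05 over all tested genes. Cdkn1a, Ccnd1, Cdkn2c, Cdkn2a and Cdkn2b lie below 0, Rb1 lies above 0 without passing, and the interval of Ccnd3 runs from -2.14 to 0.46.

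By gene value in FPKM, the order was led by the same pair in both groups, Cdkn2a and then Cdkn1a, and the D cyclins and Rb1 were the lowest. This did not hold for transcripts in every sample. In untreated sample 1, Ccnd3-201 was at 43.3 FPKM, above Cdkn2d (38.1 FPKM) and Cdkn2b (35.7 FPKM), but it was 0 in untreated sample 3. By gene value again, the other inhibitors lay between these. With BMP4, Cdkn2d, Cdkn2c, Cdkn1b and Cdkn2b followed in that order, with ranges that did not touch. Without BMP4 the order was Cdkn2c, Cdkn2d, Cdkn2b and Cdkn1b, with overlapping ranges for Cdkn2d and Cdkn2b. By gene value, Rb1 was above Ccnd2 in BMP4 samples (7.15 to 7.72 FPKM and 6.36 to 6.83 FPKM). It was below Ccnd2 in untreated samples (6.22 to 6.59 FPKM and 6.94 to 7.40 FPKM). The transcripts Rb1-001 and Ccnd2-001 overlapped in BMP4 samples, at 9.05 to 9.64 FPKM and 9.21 to 9.92 FPKM. Without BMP4, Rb1-001 was lower, at 7.86 to 8.38 FPKM against 9.77 to 10.7 FPKM. The range of Ccnd3 overlapped those of Ccnd2 and Ccnd1 in each group.

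Of the 20 member transcripts that reached a mean of 1 FPKM, 6 were lower and 0 higher (limma adjusted p under 0.05 over 17213 transcripts; 1, Rb1-001, higher at an unadjusted p under 0.05), beside 4.53% lower and 4.03% higher over all tested transcripts, 8.55% in all. The 6 were Cdkn1a-001, Cdkn2a-001, Cdkn2a-002, Cdkn2b-201, Cdkn2c-001 and Ccnd1-001. These calls were lost more readily than those of the genes. Without the variance trend, Ccnd1-001 alone of the 6 passed (limma adjusted p = 0.0200), and the other 5 were at 0.0533 to 0.103. Cdkn2c-001 passed in 1 of 13 alternatives. Without any 1 of the 6 libraries the call of Ccnd1-001 (limma adjusted p = 0.0705 to 0.114), Cdkn2a-002 (0.0644 to 0.129), Cdkn2b-201 (0.0760 to 0.0994) and Cdkn2c-001 (0.0852 to 0.151) was lost. That of Cdkn1a-001 was lost without BMP4 replicate 1 or 2 or any untreated replicate (0.0659 to 0.102), and that of Cdkn2a-001 without any BMP4 replicate or untreated replicate 2 or 3 (0.0533 to 0.0862). None of the 6 members with several tested transcripts was called for unequal change by limma's diffSplice (adjusted p = 0.457 to 0.831; 0 at an unadjusted p under 0.05), beside 1.55% of 3871 genes called. This test finds few changes at this size, so a miss does not show that transcripts changed alike.

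Genes around these members were described by lists, each set beside the 14.3% of tested genes called lower and 13.6% called higher. The lists were chosen with earlier results of these data known, so their counts are descriptions only. The list of G1 kinases, E cyclins and activators, which also holds the inhibitor Cdkn1c and the phosphatase gene Cdkn3, had 1 gene higher and 1 lower of 12. Its rise was Cdkn1c, so no kinase, cyclin or activator was called higher by limma (0 at an unadjusted p under 0.05). The gene that fell was Cdk6, the D cyclin partner kinase, at 2.17, 2.19 and 1.99 FPKM in BMP4 samples, against 2.67, 3.19 and 3.35 FPKM in untreated samples (log2 fold change -0.38, limma adjusted p = 0.0142). No gene of this list was called lower without untreated replicate 2, and 3 were without untreated replicate 3. Ccne1 (log2 fold change -0.30, limma adjusted p = 0.0546) and Cdk7 (-0.15, 0.101) did not pass. Cdk4, the other D cyclin partner, which was named after its values were seen, averaged 75.0 ± 4.23 FPKM with BMP4 and 77.5 ± 6.36 FPKM without, and did not pass (limma adjusted p = 0.675).

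The list of Rb family and E2F factors also holds Tfdp, Lin and Mybl2 genes. Of its 17 genes, 5 rose and 2 fell, with a median log2 fold change of 0.12. Those that fell were E2f2 and, named after its values were seen, Lin37 (log2 fold change -0.19, limma adjusted p = 0.0474). E2f3, an activating E2F, was at 7.32, 8.03 and 7.40 FPKM in BMP4 samples, against 5.41, 5.09 and 5.38 FPKM in untreated samples (log2 fold change 0.45, limma adjusted p = 0.00204). E2f5, a partner of the pocket proteins p107 and p130, rose by 0.44 and Rbl2, the gene of p130, rose by 0.32 on the log2 scale. E2f2 fell to 1.76, 1.36 and 1.53 FPKM in BMP4 samples, against 2.80, 2.23 and 2.57 FPKM in untreated samples (log2 fold change -0.47, limma adjusted p = 0.00900). The number lower was 1 without BMP4 replicate 1 or 2 or untreated replicate 1, 2 or 3.

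Of 28 DNA replication genes under E2F, 4 rose and 3 fell, with a median of -0.03. These shares are near those over all tested genes and are no result about replication genes. Mcm4, a subunit of the replicative helicase, rose to 123, 123 and 125 FPKM in BMP4 samples, against 92.0, 88.9 and 91.6 FPKM in untreated samples (log2 fold change 0.44, limma adjusted p = 0.000228). Rrm2, a subunit of ribonucleotide reductase, rose by a log2 fold change of 0.28, while the thymidylate pathway genes Tk1 and Tyms fell by 0.35 and 0.29. The number higher was 2 without BMP4 replicate 1, 2 or 3 or untreated replicate 2.

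Mitotic genes were called in 1 direction. Of 25, 7 rose and 0 fell (limma; 0 lower at an unadjusted p under 0.05 as well), with a median of 0.14. Cdc25b, a phosphatase that activates CDK1, was at 31.7, 32.1 and 33.0 FPKM in BMP4 samples, against 23.6, 24.1 and 22.5 FPKM in untreated samples (log2 fold change 0.45, limma adjusted p = 0.000484). The mitotic kinesin gene Kif11 rose by 0.28, the kinase gene Cdk1 by 0.22 and the spindle factor gene Tpx2 by 0.18. The number higher was 4 without BMP4 replicate 1 and 3 without BMP4 replicate 2 or untreated replicate 2.

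In the list of p53 and its target genes, falls outnumbered rises. Of 24 tested genes, which include Trp53, 9 fell and 1 rose, with a median of -0.20. Cdkn1a is itself a p53 target but was not in this list. Plk2, a polo-like kinase gene, was at 14.8, 15.2 and 14.7 FPKM in BMP4 samples, against 25.9, 28.0 and 29.0 FPKM in untreated samples (log2 fold change -0.85, limma adjusted p = 4.89e-05). Ccng1, cyclin G1, fell by 0.78 on the log2 scale and Eda2r, a receptor of the TNF family, fell by 0.85. Sesn1, a sestrin gene, rose to 21.4, 21.4 and 21.8 FPKM in BMP4 samples, against 16.5, 16.3 and 16.3 FPKM in untreated samples. Trp53 itself, named after its values were seen, overlapped between groups at 25.7 ± 3.84 FPKM with BMP4 and 28.6 ± 2.44 FPKM without (limma adjusted p = 0.354).

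Of 15 genes for turnover of D cyclins and inhibitors, 1 rose and 1 fell. Cks1b, the cofactor with which SKP2 marks p27 for destruction, rose by 0.15 on the log2 scale (limma adjusted p = 0.0266), and it was not called once BMP4 replicate 1, 2 or 3 or untreated replicate 2 was left out. Psmd10, the gene of gankyrin, which binds Rb and CDK4, fell by 0.26 (limma adjusted p = 0.0299). Without BMP4 replicate 1 the number lower was 0, and without untreated replicate 1 it was 2. Skp2 (0.19, 0.0569) and Fbxo4 (-0.18, 0.0584) did not pass.

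Transcriptional regulators known to act on these genes rose more often than they fell, 10 against 3 of 33 tested, with a median of 0.07. Id2, an inhibitor of helix-loop-helix factors that BMP signals induce, was at 52.3, 50.6 and 53.7 FPKM in BMP4 samples, against 18.2, 14.8 and 18.6 FPKM in untreated samples (log2 fold change 1.55, limma adjusted p = 2.37e-05). Id1 and Id3 of the same family, named after their values were seen, were also among the 10 that rose. Foxo1, a forkhead activator of Cdkn1b and Cdkn1a, was at 19.6, 20.2 and 19.8 FPKM in BMP4 samples, against 10.9, 11.1 and 11.5 FPKM in untreated samples (log2 fold change 0.78, limma adjusted p = 3.77e-05). Junb, an AP-1 factor, rose by 0.62, while Klf4, an activator of Cdkn1a, fell by 0.45. The number lower was 1 without BMP4 replicate 1 or 2 or untreated replicate 2.

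**Figure D4:**
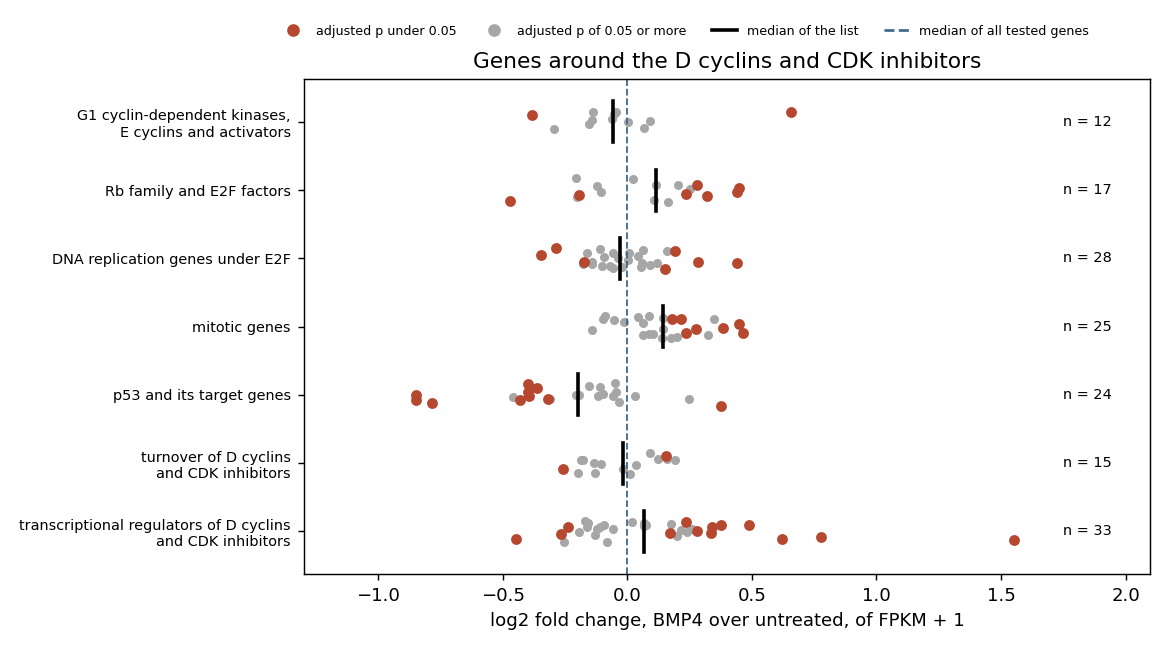
Log2 fold change of FPKM + 1, BMP4 over untreated (x axis), of every tested gene in 7 lists (y axis, n genes at the right); red points have a limma adjusted p under 0.05, black bars are list medians and the dashed line is the median of all tested genes. The p53 list has its median at -0.20 and the mitotic list at 0.14, Id2 is the rightmost point at 1.55, and the point at 0.66 in the G1 list is the inhibitor Cdkn1c.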

How the data were processed

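Polyadenylated RNA of 6 samples was sequenced as strand-specific paired-end libraries, per the labels' protocols. On GRCm38 the authors used FastQC, cutadapt, HISAT2 and StringTie, per the submitters' processing notes. The sources used here give no versions, settings, strand option or handling of multiply mapped reads. Per the file headers, genes and transcripts have deposited FPKM values; the higher group mean was at least 0.502 FPKM for each gene. Each table had 1 emptied line. Of low values, 21% to 31% per sample lay within 0.05 of a whole multiple of the best step, beside 20% to 22% of random values, so whole reads could not be recovered and depth is unknown.

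Features with a mean of at least 1 FPKM were tested on log2(FPKM + 1) by limma 3.58.1 in R 4.3.3 (two-sided, variance trend, Benjamini-Hochberg adjustment over all tested features, threshold 0.05), with 3 samples per group and no covariate. Unequal transcript change was tested by diffSplice. Each test was first tested on simulated data, where the transcript and transcript-share tests found few of the changes set. EdgeR's count test, planned for read counts only, was not run on FPKM. GENCODE M21, on the same build, gave exons, coding length and overlap. Members and gene lists were chosen with earlier results of these data known. Named list genes are up to 4 per list in order of adjusted p. Genes named outside this rule are said to be so in the text. Alternatives covered the pseudocount, filter, scaling, variance trend, replicate block and each replicate left out; the D cyclin share without Ccnd3 was added after seeing the data. Same-numbered samples did not deviate together.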

Additional observations from a re-analysis of the deposited data

How the results depend on the processing

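The 5 member genes called lower kept their call in every alternative run, 13 each and 12 for Ccnd1, which is below the stricter filter; no member gene changed sign in 129 values. The number of members higher was 2 after rescaling to equal sums, and 1 after median-ratio rescaling or without the variance trend. Counts of list genes moved as follows. Under the filter at 5 FPKM, which tests fewer genes, 0 genes of the G1 list and 1 of the Rb and E2F list were lower. After rescaling to equal sums, 2 turnover genes were higher and 2 lower. With that scaling 2 genes of the G1 list and 1 of the Rb and E2F list were lower. After median-ratio rescaling, 2 turnover genes were higher and 3 lower, and 2 genes of the G1 list were lower. Without the variance trend 0 turnover genes were higher.

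Leaving out each replicate, the number of genes higher was 985 (without BMP4 replicate 1) to 1419, of transcripts higher 339 to 543 and of transcripts lower 400 to 536, beside 693 and 779 with all samples. It gave 2 to 4 replication genes higher, 3 to 8 mitotic genes higher, and 0 to 1 turnover genes higher and 0 to 2 lower. It also gave 1 to 2 genes of the Rb and E2F list, 0 to 3 of the G1 list and 1 to 2 regulators lower. The difference of the Ccnd1 share among D cyclins ranged from -4.35 to 1.49 percentage points, so its sign turned. The log2 fold change of the transcript Ccnd3-018 ranged from -0.52 to 0.76, and was -0.17 with a pseudocount of 0.1. The cause was not tested.

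The replicate numbers share only a number: deviations of same-numbered samples correlated at -0.15, 0.05 and -0.22. With the replicate block 994 genes were higher and 1046 lower, and 168 transcripts were higher and 173 lower. By list, 2 replication genes, 2 mitotic genes and 0 turnover genes were higher. Lower were 1 gene of the Rb and E2F list, 0 turnover genes and 1 regulator. The 5 member genes kept their calls and none of the 6 member transcripts did (limma adjusted p 0.132 to 0.194). With 3 samples per group and depth unknown, small changes such as those of Cdkn2d and Ccnd2 could not be resolved.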

Other observations

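As a description over 6 samples in 2 groups, which the group difference dominates, tested genes were ranked by likeness of log2 level to Cdkn2c. Members and predicted or clone-named genes (Gm followed by digits, or ending in Rik) were left out. The closest of the rest were Etf1, a translation release factor gene (Pearson r = 0.999), Mvp, the major vault protein gene (r = 0.998), and Fdx1, a ferredoxin gene (r = 0.998). Their log2 fold changes were -0.07, -0.55 and -0.79. No member passed as higher, so no such genes were sought for a rise.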
